A study of Mus musculus with 24 samples.

Results

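The lungs of IL-13 knockout mice were compared with those of wild type mice after both had been treated with HDM, which is taken here as the usual abbreviation of house dust mite. The comparison holds every sample that the labels place in these groups, 3 knockout and 3 wild type samples, or 6 of the 12 samples of the series and 12 of its 24 arrays, since each sample was hybridised to an array of set A and an array of set B. The other 6 samples are 3 knockout and 3 wild type lungs treated with PBS, the saline control, and they serve here as the background. All 4 groups are whole lung total RNA. The genetic background, the exact lesion in the Il13 gene, the age and sex of the mice, the dose, route and timing of HDM, and whether each sample is a separate animal or a pool are not given in the sources used here, so p-values measure only the spread between these samples, which may be technical. No samples were chosen by a measured value, and the comparison was run over all genes that passed a filter on dim probe sets, 14477 genes on 31496 probe sets.

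IL-13 is a cytokine made mainly by type 2 helper T cells and group 2 innate lymphoid cells. It binds a receptor made of the IL-4 receptor alpha chain and IL-13R alpha 1, which activates the transcription factor STAT6, and it also binds IL-13R alpha 2, widely described as a decoy. In the airway it is known for turning epithelial cells into mucus-secreting goblet cells, for inducing chemokines that attract eosinophils, and for effects on airway smooth muscle and macrophages.

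Il13 itself was too dim to pass the filter, so it gave only a weak check of the labels. In a fit without that filter its signal was 29.9, 15.96 and 15.5 in the wild type samples after HDM and 8.71, 13.6 and 15.5 in the knockout samples. The groups overlapped, and the difference of -0.46 ± 0.28 (log2, SE) had an adjusted p of 0.778 by limma with Benjamini-Hochberg adjustment. Which part of the transcript the knockout removes is not given, so a probe set outside it would check nothing.

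Signal below means the scaled array intensity that the authors deposited. Array medians ran from 69.5 to 77.7 on set A and from 83.5 to 93.7 on set B, and samples of 1 group correlated at 0.962 to 0.98 on set A and at 0.887 to 0.927 on set B (Spearman). A pair of features differed between samples, and only the first set the HDM groups apart. The 5′ to 3′ signal ratio of actin, a sign of RNA integrity, was 0.464, 0.656 and 0.611 in the knockout samples after HDM and 0.822, 0.695 and 0.832 in the wild type samples on set A, without overlap, while that of Gapdh overlapped. The summed signal of 10 skeletal muscle genes was 1994 and 5355 in wild type HDM replicates 1 and 2, against 840 in replicate 3 and 717 to 887 in the knockout samples after HDM. After PBS it was 3373 in wild type replicate 2 and 658 to 1232 in the other samples. The part of the actin ratio and of the skeletal muscle signal in the results was not tested beyond the values given with those results.

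After HDM, 70 genes were lower and 27 higher in the knockout than in the wild type lung (limma, adjusted p under 0.05), which is 0.484% and 0.187% of the genes tested and 0.67% of them in all. Of these, 48 of the lower genes and 9 of the higher genes differed by at least 2-fold. Counted by probe set, 99 were lower and 45 higher, together 144, or 0.314%, 0.143% and 0.457% of those tested, and 12 of the 144 carry no single gene name. The median difference over all genes was 0.02 (log2). Gene lists used below were chosen with earlier results of these data known, so their counts are no independent support. The shares to set beside those counts are the 0.484% lower and 0.187% higher of all genes. For list counts at an unadjusted p under 0.05 in limma, the background is by probe set, 2677 of the 31496 tested. In all 97 called genes the 3 knockout values lay wholly on one side of the 3 wild type values, which was also true of 17% of all genes. A further 48 probe sets represent 33 of these genes. Of the 48, 43 had the sign of the main probe set, but only 7 were also called in that direction. In the opposite direction 1 was called, that of Xaf1.

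The PBS samples show how the same genes stood without HDM. The median difference of the 70 lower genes was -1.23 after HDM and -0.09 after PBS (log2), and 43 of the 70, or 61.4%, were below 0 after PBS, where 50% of all genes are. The 27 higher genes had a median of 0.80 after HDM and 0.29 after PBS, and 25 of them were above 0 after PBS. The knockout and wild type groups were apart after PBS in 25 of the 70 lower genes and in 15 of the 27 higher genes, against 12.4% of all genes. In the test of the difference itself, whether the genotype gap after HDM differs from that after PBS, 21 of the lower genes and 1 of the higher genes passed, where 0.159% of all genes did. At an unadjusted p under 0.05 it was 64 of the 70 lower genes and 17 of the 27 higher genes. The difference after HDM, by which these genes were chosen, is part of this test. These unadjusted counts are therefore raised by that choice and are no support for a change with treatment. The share of all genes at that level is not given here.

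**Figure D1:**
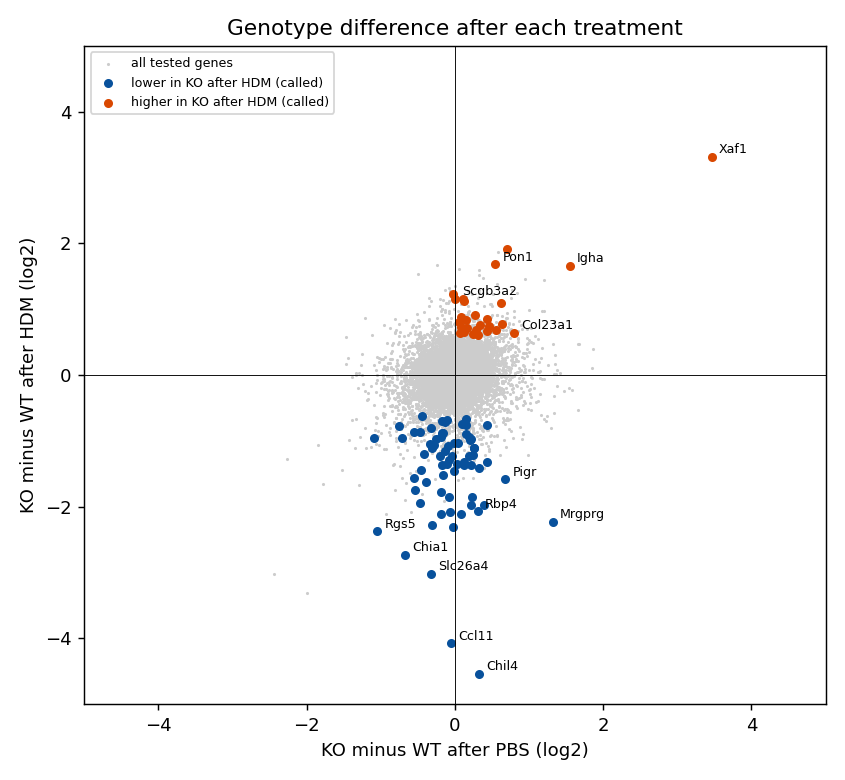
Each point is a gene, with the knockout minus wild type difference after PBS on the horizontal axis and after HDM on the vertical axis, both in log2 of signal plus a small constant. Genes lower in the knockout after HDM (blue, 70) spread down to -4.54 at Chil4, with a median of -0.09 after PBS and single genes on either side, such as Mrgprg (1.32) and Rgs5 (-1.04), while the Xaf1 probe set shown (orange, top right) is above 3 on both axes.

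Chitinases and chitinase-like proteins held the largest decrease among the genes that passed the filter, that of Chil4. They are a family that HDM and type 2 cytokines are known to induce in mouse lung. Chil4, which encodes the chitinase-like protein Ym2, had signals of 2697, 3470 and 3198 in the wild type samples after HDM and 111, 142 and 129 in the knockout samples. Both PBS groups were lower still, between 13.4 and 101, so that the knockout samples after HDM were just above that range and the wild type samples far above it. The decrease was 4.54 ± 0.46 on the log2 scale (a difference of -4.54, adjusted p 0.000652, limma), 24.6-fold between means. Chia1, the acidic mammalian chitinase, had signals of 3826, 4167 and 5120 in wild type and 776, 626 and 558 in knockout lung after HDM. Its difference was -2.73 ± 0.18 (adjusted p 3.67e-05), and after PBS it was -0.68 with an adjusted p of 0.48. Chil1, also called BRP-39, was lower by less, with means of 2997 ± 315 and 1784 ± 136 (SD, n = 3) and a difference of -0.74 ± 0.13 (adjusted p 0.0219). That call was lost in 5 of the 12 fits that each left out a sample, among them each of the 3 fits without a knockout HDM sample. Chil3, or Ym1, a close relative of Chil4, stayed with overlapping groups at 3385, 3882 and 3867 against 2821, 3378 and 3411 (-0.21 ± 0.17, adjusted p 0.81). Chil3 and Chil4 are near-identical genes, so how far each probe set reads only its own transcript is uncertain. Of the 6 tested genes of the family, 3 were lower and 0 higher, against 0.484% and 0.187% of all genes, with a median of -0.52.

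Goblet cell and mucus genes were the next group. Of 17 tested genes on that list, 4 were lower and 0 higher, against 0.484% and 0.187% of all genes. On that list 15 were below 0 and the median was -0.43 (log2). Fcgbp, the Fc gamma binding protein of mucus, had 804, 846 and 928 in wild type and 207, 208 and 244 in knockout lung after HDM, a difference of -1.94 ± 0.16 (adjusted p 0.000177). Scin encodes scinderin, an actin-severing protein of secretory cells. It read 178, 174 and 134 in wild type and 24.9, 23.1 and 35.8 in knockout lung (-2.28 ± 0.23, adjusted p 0.000598). The knockout samples after HDM lay just above the PBS samples for Fcgbp (87.2 to 182) and overlapped them for Scin (16.9 to 28.8). Muc5ac, the main inducible gel-forming mucin, differed by less. Its signals were 239, 253 and 294 in wild type and 113, 106 and 122 in knockout lung, without overlap, and every PBS sample lay between 12.7 and 21.2. Knockout lungs after HDM therefore held Muc5ac above every PBS sample but below every wild type sample after HDM (-1.15 ± 0.19, adjusted p 0.0175), a call lost in 6 of the 12 leave-one-out fits and with the actin ratio as a covariate (adjusted p 0.101). Muc5b, the mucin of resting airways, had means of 651 ± 52.0 and 420 ± 20.7 (SD, n = 3), and its difference of -0.62 ± 0.12 (adjusted p 0.0468) held in 1 of those 12 fits.

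Clca1, a secreted protein of goblet cells, followed the same order without passing the test. It read 3756, 4872 and 4581 in wild type and 1483, 1070 and 1365 in knockout lung after HDM, groups that lie apart, and the difference was -1.75 ± 0.91 (adjusted p 0.655). The fit takes its spread from all 4 groups, and in the PBS samples Clca1 ranged from 0.875 to 148. Tff1, Tff2 and Muc1 overlapped between genotypes after HDM, with differences of -0.25, -0.45 and 0.08 that did not pass (adjusted p 0.78, 0.598 and 0.938).

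Several goblet cell genes lay under the filter because 3 of the 4 groups hardly expressed them, and they were read from the fit without a filter, so their calls were made possible by the wild type HDM group alone. Itln1, the lectin intelectin 1, had 423, 437 and 400 in wild type samples after HDM and 3.66, 3.22 and 2.07 in knockout samples. The 6 PBS samples read 1.80 to 3.55, about the same as the knockout samples after HDM, and the difference was -5.42 ± 0.18 (adjusted p 5.18e-08). Retnlb, the goblet cell product RELM beta, read 160, 176 and 136 in wild type and 6.43, 8.89 and 6.42 in knockout lung (-3.52 ± 0.21, adjusted p 1.54e-05). Agr2, a disulfide isomerase needed for mucin folding, read 168, 186 and 132 in wild type and 16.9, 15.4 and 19.1 in knockout lung (-2.79 ± 0.35, adjusted p 0.00413). All 3 genes were apart between genotypes after HDM and overlapped after PBS. Spdef, the transcription factor of goblet cell differentiation, had means of 65.2 ± 9.69 and 12.9 ± 4.43 (SD, n = 3; -1.88 ± 0.31, adjusted p 0.0231), and lost its call in 6 of the leave-one-out fits. Ern2, the secretory-cell stress sensor, had means of 30.7 and 11.3 and did not pass (adjusted p 0.375).

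**Figure D2:**
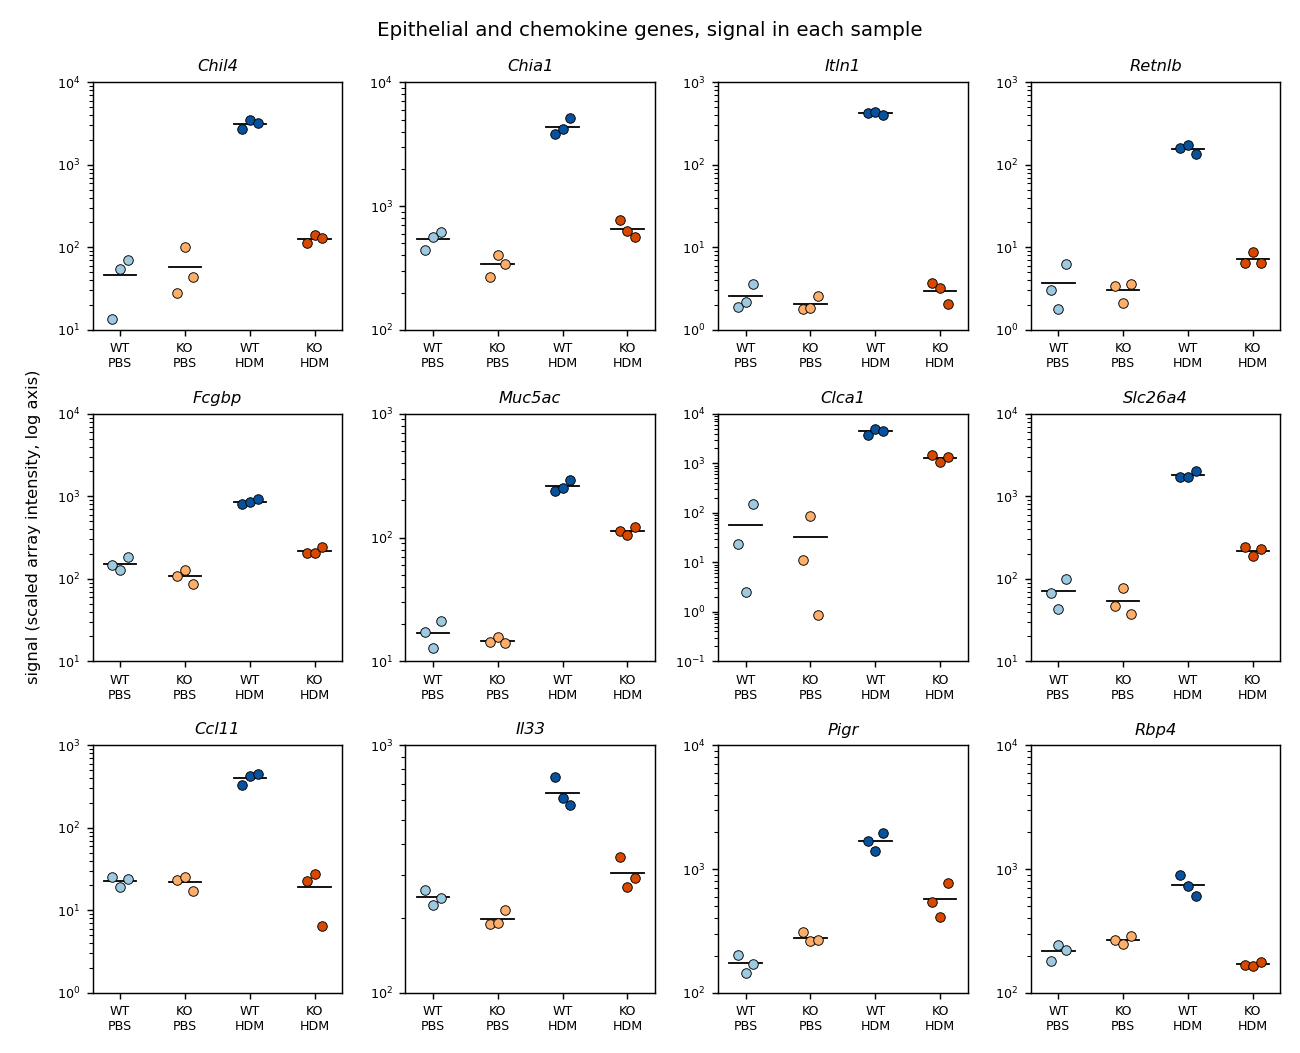
Signal of 12 genes in each of the 12 samples on log axes, 3 points per group, with a bar at the group mean. In Chil4, Itln1, Retnlb and Ccl11 the knockout HDM samples (dark orange) lie near the PBS samples, in Muc5ac and Clca1 they lie between the PBS samples and the wild type HDM samples (dark blue), and Clca1 did not pass the test.

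Transporters and channels of the airway surface were affected in both directions. Of 18 tested genes for epithelial ion and solute transport, 5 were lower and 2 higher, with a median of -0.22. Of all genes 0.484% were lower and 0.187% higher. Slc26a4, the anion exchanger pendrin, had the largest decrease, from 1699, 1711 and 2034 in wild type to 241, 187 and 227 in knockout lung after HDM (-3.02 ± 0.27, adjusted p 0.000318). After PBS it read 37.6 to 101 over both genotypes, below every HDM sample. Slc6a20a, a proline transporter, read 197, 147 and 152 against 39.1, 39.2 and 43.2 (-1.85 ± 0.21, adjusted p 0.00175), and Slc5a1, the sodium-glucose cotransporter SGLT1, 197, 158 and 182 against 59.99, 45.9 and 39.8 (-1.75 ± 0.25, adjusted p 0.00838, lost without knockout HDM replicate 3). Kcnj15, an inward rectifier potassium channel, and Car2, a carbonic anhydrase, were lower by 1.36 and 1.11 on the log2 scale (differences of -1.36 and -1.11, adjusted p 0.02 and 0.00355). The Kcnj15 call was lost in 5 of the leave-one-out fits. A pair of subunits of the epithelial sodium channel ENaC were higher in the knockout. Scnn1a read 618, 560 and 574 in wild type and 877, 859 and 964 in knockout lung (0.62 ± 0.10, adjusted p 0.0129), and Scnn1b 131, 156 and 119 against 243, 212 and 245 (0.76 ± 0.13, adjusted p 0.021). Both subunits were also apart between genotypes after PBS, by 0.25 and 0.34 without passing, and both calls were lost with the actin ratio as a covariate and in 3 and 4 leave-one-out fits. Cftr, the cystic fibrosis chloride channel, overlapped between genotypes (0.05, adjusted p 0.98). Fxyd4, a regulator of the sodium pump outside that list, was lower by 2.08 ± 0.24 (a difference of -2.08, adjusted p 0.00189) and held its call under all 22 alternative settings.

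Lower genes outside the mucus list included a secreted carrier and a transport receptor. Rbp4, the plasma retinol-binding protein, read 890, 724 and 611 in wild type and 167, 166 and 176 in knockout lung after HDM (-2.07 ± 0.15, adjusted p 6.83e-05). The knockout samples lay below every PBS sample of either genotype, whose lowest value was 181. It was the 1 called gene of 10 tested in retinoid metabolism. Pigr, the epithelial receptor that carries IgA and IgM into the airway lumen, read 1699, 1407 and 1972 in wild type and 544, 406 and 774 in knockout lung (-1.58 ± 0.21, adjusted p 0.00482). After PBS the order of the Pigr groups was the other way round, 145 to 203 in wild type and 263 to 309 in knockout, and the genotype difference changed with treatment by -2.26 ± 0.30 (adjusted p 0.016). A further Pigr probe set gave -2.17 after HDM (adjusted p 3.67e-05).

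Among chemokines, the signals that attract leukocytes, the decrease was in 1 gene of 21 tested, against a background of 0.484%. Ccl11, or eotaxin 1, which attracts eosinophils through the receptor CCR3, read 333, 420 and 453 in wild type and 22.9, 27.8 and 6.47 in knockout lung after HDM. All 6 PBS samples read 17.3 to 25.3, so the knockout samples after HDM were at the level of the saline controls (-4.07 ± 0.31, adjusted p 9.06e-05). Ccl24, or eotaxin 2, which macrophages make, read 205, 179 and 264 against 99.7, 59.9 and 51.8, apart but short of the threshold (-1.56 ± 0.33, adjusted p 0.0732). With a pseudocount 4 times larger Ccl24 passed (adjusted p 0.0111). Ccl17 and Ccl22, ligands of CCR4 on type 2 T cells, differed by -0.62 and -1.09 without passing (adjusted p 0.293 and 0.504), and Ccl8, a monocyte and T cell attractant, by 0.26 (adjusted p 0.934). Cxcl3, a neutrophil attractant not on the list, was lower, with 245, 207 and 153 against 36.3, 61.3 and 54.8 (-1.78 ± 0.24, adjusted p 0.00598). It is named here after its values were seen.

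Il33, the epithelial alarmin that activates innate lymphoid cells, was the 1 called gene among 13 tested alarmins and inflammatory cytokines. It read 742, 615 and 573 in wild type and 353, 267 and 291 in knockout lung after HDM, without overlap (-1.07 ± 0.14, adjusted p 0.00455). Its PBS values, 226 to 261 in wild type and 190 to 217 in knockout, were also apart, by -0.28 (adjusted p 0.76), and the test of the change in genotype difference did not pass (-0.79, adjusted p 0.47).

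The receptor and signalling genes of IL-4 and IL-13 did not pass in either direction, 0 of 11 tested, with a median of 0.11 and 3 genes at an unadjusted p under 0.05. Il4ra, the shared receptor chain, read 281, 296 and 257 in wild type and 404, 357 and 330 in knockout lung, apart but small (0.38 ± 0.14, adjusted p 0.469). Gata3, the transcription factor of type 2 lymphocytes, differed by 0.68 ± 0.27 (adjusted p 0.5), Stat6 by 0.08 and Il13ra1 by 0.11 (adjusted p 0.947 and 0.951). Il13ra2, under the filter, read 46.0, 42.7 and 62.4 against 22.8, 28.9 and 20.0, apart, with a difference of -0.89 ± 0.27 (adjusted p 0.338). Il5, the eosinophil growth factor, was dim in all groups and overlapped (0.31, adjusted p 0.933).

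Macrophage genes of the alternatively activated state, which IL-4 and IL-13 are known to induce, gave 0 calls of 19 tested in limma. Their median was -0.14, and 10 genes had an unadjusted p under 0.05, where 2677 of all 31496 tested probe sets did. Retnla, or Fizz1, read 4195, 5564 and 6802 in wild type and 5094, 5445 and 5659 in knockout lung, wholly overlapping (-0.01 ± 0.40). Arg1, arginase 1, read 815, 877 and 1742 against 329, 293 and 244, apart by -1.88 ± 0.43, with an adjusted p of 0.117. Arg1 passed in the fit of the 6 HDM samples alone (0.0423), with a larger pseudocount (0.00941) and without wild type PBS replicate 3 (0.0164), so whether it counts as lower depends on the fit. Cd163, a haemoglobin scavenger receptor, ran the other way at 96.8, 152 and 167 against 380, 300 and 244 (1.13 ± 0.25, adjusted p 0.0937). Among 19 genes of arginine and polyamine metabolism, a list that also holds Arg1, and 31 general macrophage genes, 0 passed and the medians were -0.14 and -0.12, with 4 and 6 at an unadjusted p under 0.05. Itgax, or CD11c, read 1346, 1221 and 1156 against 894, 786 and 907 (-0.52 ± 0.10, adjusted p 0.0601), and the change in its genotype difference with treatment did pass (-0.92, adjusted p 0.047).

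Smooth muscle genes were the largest called group. Of 29 tested, 11 were lower and 0 higher in the knockout after HDM, against 0.484% and 0.187% of all genes. In that list 26 were below 0, and the median was -0.53 after HDM and -0.02 after PBS. Acta2, smooth muscle actin, read 2239, 2641 and 2743 in wild type and 1186, 1058 and 1001 in knockout lung (-1.23 ± 0.13, adjusted p 0.0011). Over both genotypes the PBS samples read 1019 to 1386, so the knockout samples after HDM stayed about there and the wild type samples lay above. Actg2, the enteric form of that actin, read 569, 517 and 416 against 110, 135 and 89.7 (-2.10 ± 0.18, adjusted p 0.000177). Myh11, the smooth muscle myosin heavy chain, read 457, 435 and 278 against 107, 81.0 and 87.8 (-1.98 ± 0.23, adjusted p 0.0022). Tpm2, a tropomyosin, read 1320, 1495 and 1404 against 403, 342 and 323 (-1.97 ± 0.22, adjusted p 0.00159), and all 4 genes were apart after HDM and overlapped after PBS. Aoc3, an amine oxidase of smooth muscle and vessel wall, was lower by 2.10 ± 0.22 on that scale (-2.10, adjusted p 0.000767), and Tagln, or SM22, by 1.22 ± 0.13 (-1.22, adjusted p 0.0011). The other 5 called genes were Lmod1, Cnn1, Synpo2, Myl9 and Mylk, between -1.36 and -0.71. Further Synpo2 probe sets gave -0.65, -0.34 and -0.29, without a call. Knockout samples after HDM overlapped the PBS samples in Acta2, Actg2, Tagln and Cnn1. They lay below every PBS sample in Myh11 (PBS 138 to 254), Tpm2 (415 to 952), Aoc3, Lmod1, Synpo2, Myl9 and Mylk. Cnn1 held in 2 of the 12 leave-one-out fits, Lmod1 in 5 and Mylk in 8. In 7 of the list's genes, the change of the genotype difference with treatment passed too.

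Marker genes of other muscle and of fat also differed between some samples. The summed signal of the smooth muscle list was 19270 to 22070 in wild type lung after HDM and 13390 to 14320 in knockout lung. In the PBS samples of both genotypes it was 17550 to 20160, which overlaps wild type lung after HDM. Skeletal muscle genes had a median of -0.94 and adipose genes of -1.02 over 10 and 9 tested, with 0 of either called in limma and 4 and 6 at an unadjusted p under 0.05. Acta1, skeletal actin, read 699, 2105 and 68.7 in wild type against 56.1, 54.2 and 23.3 in knockout lung, and Adipoq, the fat hormone adiponectin, 31.2, 310 and 435 against 41.9, 27.8 and 52.6. Skeletal muscle signal was thus high in wild type replicates 1 and 2 and fat signal in replicates 2 and 3. Cardiac genes summed to 2682 to 3401 against 1968 to 2450, with Actc1 called (-1.11 ± 0.18, adjusted p 0.0162), an actin that was the 1 called gene of 14 and lost its call in 4 leave-one-out fits, while the myosins Myh6 and Myh7 overlapped (-0.08 and 0.19). Without wild type HDM replicates 1 and 2, with the spread of the 1 remaining sample taken from the other groups, 4 smooth muscle genes stayed called, namely Actg2 (-1.85), Aoc3 (-2.23), Acta2 (-1.34) and Synpo2 (-1.16). The other differences there were of like size, such as -1.53 for Myh11 and -1.97 for Tpm2. In this bulk tissue, fewer cells of a type and less RNA per cell cannot be told apart.

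**Figure D3:**
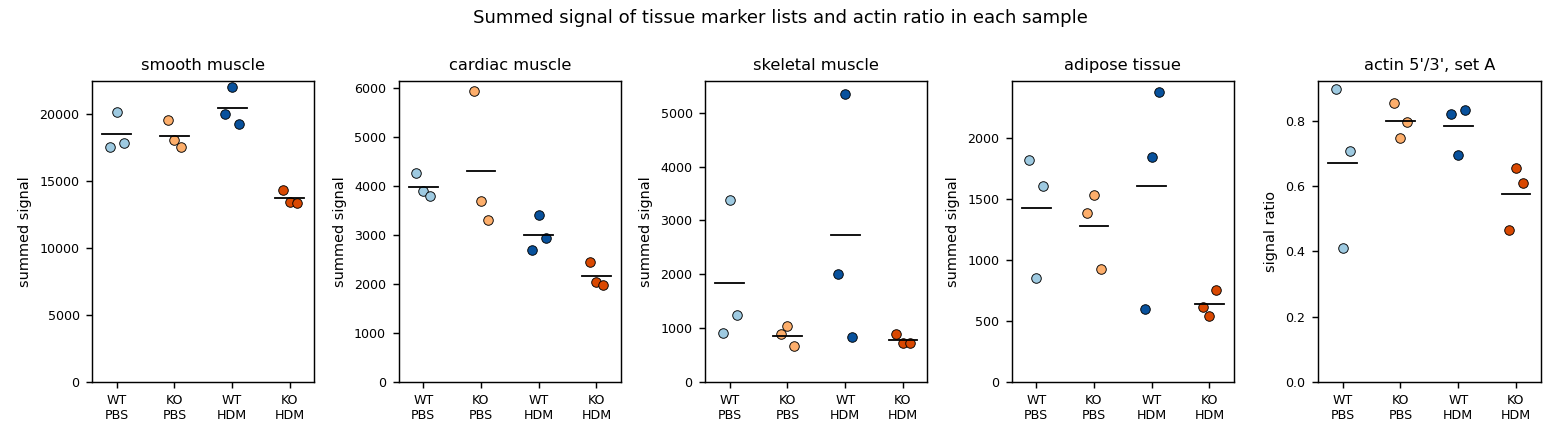
Summed signal of 4 lists of tissue marker genes, and the 5′ to 3′ signal ratio of actin on set A, in each sample, with a bar at each group mean. Smooth muscle sums in knockout HDM samples (13390 to 14320) lie below all other samples, while skeletal muscle and adipose sums are high in some wild type samples, and the mean actin ratio is lowest in knockout HDM.

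Pericyte and matrix genes were lower in part. Rgs5, a G protein regulator that marks pericytes, read 500, 575 and 521 in wild type and 87.8, 133 and 76.9 in knockout lung after HDM (-2.38 ± 0.20, adjusted p 0.000159). It was apart after PBS as well, at 122 to 170 against 63.4 to 72.3 (-1.04, adjusted p 0.16). A further Rgs5 probe set gave -0.62 ± 0.18 after HDM and was not called (limma, adjusted p 0.253). The other called pericyte gene of 12 was Postn, or periostin, a matrix protein that is also used as a marker of IL-13 activity in the airway. Postn read 1307, 1211 and 1126 against 616, 775 and 609 (-0.87 ± 0.13, adjusted p 0.0117), was apart after PBS by -0.48 without passing, and kept its call in 8 of the 12 leave-one-out fits. In the matrix list 4 of 29 were lower and 0 higher, against 0.484% and 0.187% of all genes, with a median of -0.18. They were Postn, Thbs1 (thrombospondin 1, -1.45 ± 0.19, adjusted p 0.00455), Ccn2 (connective tissue growth factor, -1.23 ± 0.16, adjusted p 0.00482) and Col6a1 (a collagen VI chain, -0.70 ± 0.10, adjusted p 0.0103). Its partner chain Col6a2, named after its values were seen, was lower by a like amount (-0.87 ± 0.11, adjusted p 0.00423). The Col6a1 call was lost without wild type HDM replicate 2 or knockout HDM replicate 2. Without wild type HDM replicates 1 and 2, 0 of the matrix genes stayed called.

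Several genes higher in the knockout were genes whose wild type HDM level lay below every PBS sample. Scgb3a2, a secretoglobin of club cells, read 1820, 2060 and 1939 in wild type and 4188, 4390 and 4414 in knockout lung after HDM, while the 6 PBS samples read 4546 to 5544. The difference was 1.16 ± 0.11 (adjusted p 0.00042), and its change with treatment passed as well (1.16, adjusted p 0.016), the only higher gene for which it did. Selenbp1, a selenium-binding protein, read 905, 880 and 822 against 1623, 1405 and 1810 (0.88 ± 0.11, adjusted p 0.00306), with every PBS sample at 2530 or above. Those were the 2 higher genes of 15 on the club cell list. Aox3, an aldehyde oxidase on that list, was lower, at 382, 376 and 323 against 153, 153 and 147 (-1.21 ± 0.12, adjusted p 0.000447), and Scgb1a1, the best known club cell protein, overlapped (0.08, adjusted p 0.94). The club cell list's summed signal was 29960 to 35520 in wild type lung and 37460 to 40490 in knockout lung.

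Pon1, the paraoxonase of lipid peroxides, read 40.9, 48.8 and 55.2 in wild type and 161, 185 and 163 in knockout lung (1.68 ± 0.18, adjusted p 0.00128), against 135 to 292 in PBS samples. Thbs3, a thrombospondin, was higher by 1.09 ± 0.17 (adjusted p 0.015) and Plet1, an epithelial surface protein, by 0.85 ± 0.12 (adjusted p 0.00694). Bex2, on the list of alveolar type 2 cells, read 52.2, 58.7 and 55.1 against 162, 113 and 116 (1.12 ± 0.18, adjusted p 0.0134), the 1 called gene of 19 there. The calls of Thbs3 and Bex2 were lost in 3 and 2 leave-one-out fits and with the actin ratio, and those of Pon1 and Plet1 in none of these. For each of these 4 genes the knockout values after HDM were closer to the PBS range than the wild type values were. Tppp3, a tubulin-binding protein of ciliated cells, was the 1 higher gene of 18 on the ciliated list (0.69 ± 0.13, adjusted p 0.0479), a call that 1 of the 12 leave-one-out fits kept. The ciliated list had a median of 0.43 after HDM and 0.28 after PBS. Foxj1, the master regulator of motile cilia, differed by 0.38 (adjusted p 0.609). The uncharacterised genes 2610028H24Rik and 1810010H24Rik were higher by 1.91 ± 0.29 and 0.91 ± 0.15 (adjusted p 0.011 and 0.0145), calls lost in 2 and 3 leave-one-out fits.

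Genes of immune cells gave few calls. Igha, the IgA heavy chain constant region, read 1252, 1498 and 1803 in wild type and 4440, 3725 and 6558 in knockout lung after HDM (1.66 ± 0.28, adjusted p 0.019). After PBS the groups were apart in the same direction, 98.7 to 155 against 261 to 576 (1.55, adjusted p 0.14), and the change with treatment was 0.11 (adjusted p 0.99). Transcripts of immunoglobulin genes resemble each other, and the suffix of this probe set marks probes that can match other transcripts, so the assignment to Igha is uncertain, and its call was lost in 4 leave-one-out fits. Slamf7, a receptor on plasma cells and lymphocytes, read 34.1, 22.4 and 39.1 against 78.3, 81.5 and 89.7 (1.24 ± 0.24, adjusted p 0.0468), and Icos, the costimulator of activated T cells, 403, 360 and 411 against 613, 565 and 634 (0.61 ± 0.12, adjusted p 0.0399). Both calls held in 2 of the 12 leave-one-out fits. A further Icos probe set gave 0.39 and was not called (limma, adjusted p 0.764). Fpr2, a formyl peptide receptor of neutrophils, was higher by 1.15 ± 0.18 (adjusted p 0.012), losing its call without knockout HDM replicate 3 (0.07), and Hp, haptoglobin, by 0.72 ± 0.12 (adjusted p 0.019). The Fpr2 and Hp calls were also lost in the fit of the 6 HDM samples alone (0.0861 and 0.0553) and with the actin ratio (0.0509 and 0.107), and that of Hp in 5 leave-one-out fits. The T cell list of 20 had a median of 0.42 after HDM and 0.25 after PBS, and the plasma cell list of 16 a median of 0.57 after HDM and 0.14 after PBS.

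Of 9 tested mast cell and basophil genes 0 passed, with a median of 0.58 and 4 at an unadjusted p under 0.05. Mcpt2, a mucosal mast cell protease, read 183, 192 and 157 in wild type and 413, 470 and 421 in knockout lung after HDM (1.26 ± 0.26, adjusted p 0.065), and passed in the fit of the 6 HDM samples alone (0.0104). Cpa3, mast cell carboxypeptidase, differed by 0.76 ± 0.21 (adjusted p 0.222). Mcpt4, a chymase of connective tissue mast cells, lay under the filter and was called in the fit without it, at 35.7, 13.1 and 15.8 against 104, 134 and 122 (2.23 ± 0.31, adjusted p 0.00758), but not in the fit of the 6 HDM samples alone (0.0619). Mcpt4 was also apart after PBS, by 0.95 (adjusted p 0.63). Eosinophil genes were mostly dim. Of the 4 tested, 0 passed, and 1 had an unadjusted p under 0.05. Alox15, a lipoxygenase of eosinophils, macrophages and epithelium, read 377, 333 and 290 against 170, 132 and 171 (-1.05 ± 0.34, adjusted p 0.359), and the granule genes Prg2 and Epx, under the filter, overlapped between genotypes.

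**Figure D4:**
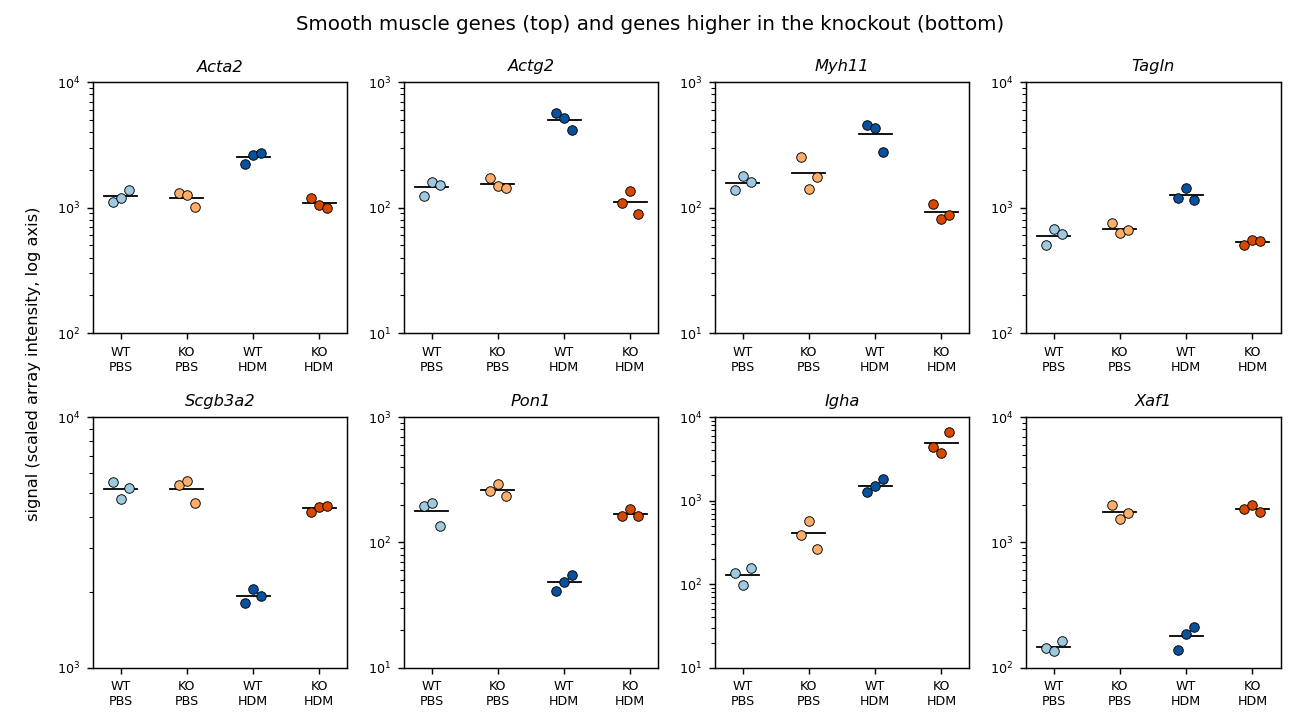
Signal of 8 genes in each of the 12 samples on log axes, 3 points per group, with a bar at the group mean. The smooth muscle genes (top) are high in wild type HDM samples alone, Scgb3a2 and Pon1 (bottom left) are low in wild type HDM samples alone, and Igha and the brighter Xaf1 probe set (bottom right) are higher in the knockout after both treatments, while another Xaf1 probe set is lower.

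Further lists that gave 0 calls in limma and whose medians lay within 0.25 of 0 were those of endothelium (28 tested, 3 at an unadjusted p under 0.05), alveolar type 1 cells (19 and 3), dendritic cells and MHC class II (21 and 5), NK and cytotoxic cells (12 and 3), B cells (17 and 2), cell cycle (37 and 12), immediate early and stress genes (21 and 6), the circadian clock (16 and 2) and thymus (4 and 0). Among these, Rrm2, a ribonucleotide reductase subunit of dividing cells, differed by 0.62 (adjusted p 0.124), Hopx of alveolar type 1 cells by 0.69 (adjusted p 0.108) and Hspa1b, a heat shock protein, by -1.09 (adjusted p 0.225). Erythroid genes (4 tested, 2 at an unadjusted p under 0.05) had a median of -0.29 and no call. Beside all these unadjusted counts stand 2677 of 31496 tested probe sets at that level in limma.

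**Figure D5:**
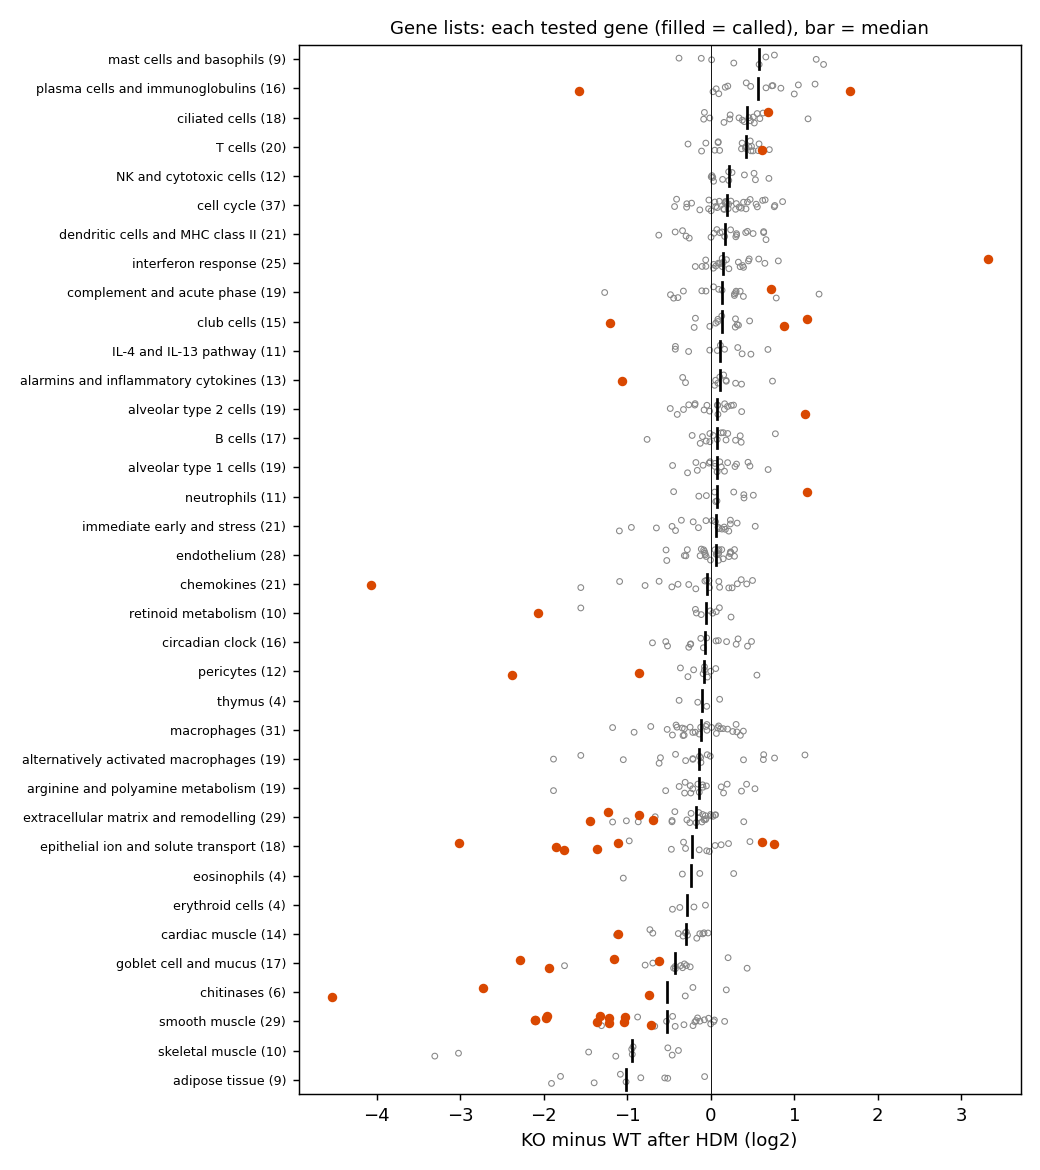
Each point is a tested gene of the list named on the left (number tested in brackets), placed by its knockout minus wild type difference after HDM in log2, with filled points called in limma and a bar at the list median. Calls cluster on the left in the smooth muscle, chitinase, goblet cell and transport lists, and the skeletal muscle and adipose lists have the lowest medians (-0.94 and -1.02) without a call.

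A few probe sets differed between genotypes after both treatments. After PBS, 3 genes were called between knockout and wild type, 0.0207% of those tested, and 12 probe sets, 6 in each direction. Of these 12 probe sets 9 were also called after HDM in the same direction, and they are 6.25% of the 144. The differences come from separate samples, but both comparisons take their spread from all 12 samples, so their calls are not independent. The lowest adjusted p was that of Xaf1, an interferon-induced regulator of apoptosis, at 138, 187 and 211 in wild type and 1852, 1973 and 1743 in knockout lung after HDM (3.32 ± 0.15, adjusted p 9.8e-07), with a difference of 3.46 after PBS (adjusted p 5.79e-07). A second Xaf1 probe set went the opposite way, by -1.77 after HDM and -2.54 after PBS (adjusted p 0.014 and 0.0061), so the probe sets do not give 1 direction for the gene. Xaf1 was the 1 called gene of 25 on the interferon list, whose median was 0.15. The other probe sets of this kind were those of Cux2, Wdr53 and Scd2, higher by 3.23, 2.48 and 1.20 after HDM and by 4.15, 2.86 and 1.44 after PBS, of Golm2, Pi4k2b and Trim16, lower (-1.58, -1.45 and -1.29), and of Col23a1. For Cux2, Wdr53, Scd2, Golm2, Pi4k2b and Trim16 a brighter probe set stands for the gene in the counts by gene, and it was called in neither comparison. Col23a1, a transmembrane collagen, read 345, 333 and 330 in wild type and 510, 554 and 524 in knockout lung after HDM (0.64 ± 0.10, adjusted p 0.0167), and differed by 0.80 after PBS (adjusted p 0.0157). The Col23a1 call after HDM was lost in 5 of the 12 leave-one-out fits (adjusted p up to 0.082), in the 6 HDM samples alone (0.0589) and without the intensity trend (0.0655).

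Il13 lies on mouse chromosome 11, and so do Col23a1, Trim16 and Xaf1, which are 27 tested genes before it and 118 and 249 after it in the RefSeq gene order. Among the 100 tested genes nearest to Il13, 50 on each side, 1 was called higher after HDM, Col23a1, and 0 lower, in limma. On the whole of chromosome 11, 6 of 1201 tested genes were higher and 4 lower, Ccl11 among the latter at 388 tested genes from Il13. Over all chromosomes 0.187% of tested genes were higher and 0.484% lower, 0.67% in all. Whether the counts on chromosome 11 differ from those shares was not tested.

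Promoter sequence was searched for the motifs of STAT6 and of SRF, the textbook activator of smooth muscle genes. The windows are RefSeq promoters of build GRCm38.p6, from 250 bases before to 50 after the start site. The STAT palindrome searched for, TTC and GAA with any 4 bases between them, is bound by STAT proteins including STAT6 and reads the same on both strands. It lay in 6 of 74 windows of lower genes (8.11%) and 0 of 20 windows of higher genes, against 6.95% of all 32851 windows and 5.65% of the windows of tested genes. The CArG box, which SRF binds and which is also its own reverse complement, lay in 3 of 74 windows of lower genes (4.05%) and 1 of 20 of higher genes, against 1.63% of all windows and 1.32% of those of tested genes. Windows existed for 57 of the 70 lower and 18 of the 27 higher genes. The 7 stretches that follow were picked from the matches by no fixed rule, and each holds the motif wholly upstream of the start of its gene. Each is given as 60 bases on the gene's own strand with the motif in capitals. The first 4 hold the STAT palindrome. They are Lmod1 (chr1:135324652-135324711, plus strand, motif at -136 from the start), Tfpi2 (chr6:3968481-3968540, minus strand, at -140), Rbp4 (chr19:38125407-38125466, minus strand, at -120) and Il33 (chr19:29925052-29925111, plus strand, at -36). The last 3 hold the CArG box, in the lower genes Myl9 (chr2:156775278-156775337, plus strand, at -161) and Actc1 (chr2:114052888-114052947, minus strand, at -47) and in the higher gene Selenbp1 (chr3:94932833-94932892, plus strand, at -241). Not shown are the matches in Mrgprg, which spans the start site, in Pfkfb2, which lies after it, and in the lower gene Gsto1, a CArG box upstream at -32.
Lmod1: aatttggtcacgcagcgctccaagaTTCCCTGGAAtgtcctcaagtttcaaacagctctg
Tfpi2: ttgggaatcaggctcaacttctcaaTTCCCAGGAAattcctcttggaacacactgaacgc
Rbp4: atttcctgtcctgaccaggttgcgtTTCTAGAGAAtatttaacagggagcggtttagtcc
Il33: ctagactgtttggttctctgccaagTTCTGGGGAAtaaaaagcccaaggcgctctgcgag
Myl9: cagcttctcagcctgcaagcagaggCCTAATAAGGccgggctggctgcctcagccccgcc
Actc1: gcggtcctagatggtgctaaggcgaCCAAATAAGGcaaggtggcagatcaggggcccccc
Selenbp1: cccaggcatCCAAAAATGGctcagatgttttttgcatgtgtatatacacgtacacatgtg

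Beside these sequences stand the changes already given for Rbp4 (-2.07), Il33 (-1.07), Actc1 (-1.11) and Selenbp1 (0.88), and those of Tfpi2, an inhibitor of tissue factor (-1.63 ± 0.24, adjusted p 0.0095, lost without knockout HDM replicate 1 or 3), Lmod1, an actin nucleator of smooth muscle (-1.36 ± 0.25, adjusted p 0.0316), and Myl9, a myosin light chain (-1.03 ± 0.14, adjusted p 0.00606). Tfpi2 read 167, 162 and 155 in wild type and 40.2, 55.5 and 47.9 in knockout lung, and F3, tissue factor itself, 142, 114 and 111 against 41.3, 41.6 and 47.3 (-1.35 ± 0.18, adjusted p 0.00579). Tfpi2 and F3 are named here after their values were seen. A match of letters is a description of the window and no site.

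Of the 12 largest decreases, AA467197 and Mrgprg belong to no group above. AA467197, also known as Nmes1, read 586, 579 and 877 in wild type and 74.3, 147 and 177 in knockout lung after HDM (-2.31 ± 0.30, adjusted p 0.00455), with every PBS sample below 17. Mrgprg, a receptor of the Mas-related family, read 177, 283 and 248 against 17.6, 55.7 and 61.8 (-2.23 ± 0.38, adjusted p 0.0212). Mrgprg was higher in the knockout after PBS, at 33.2 to 81.8 against 13.2 to 25.6 (1.32, adjusted p 0.52), its call after HDM was lost in 3 of the leave-one-out fits, and its change with treatment was -3.55 ± 0.54 (adjusted p 0.036). Of metabolic genes named after their values were seen, Me1, the malic enzyme, read 639, 612 and 719 against 230, 296 and 269 (-1.29 ± 0.14, adjusted p 0.00143), and held under all 22 alternative settings. Elf5, an epithelial transcription factor, was lower as well (-1.19 ± 0.13, adjusted p 0.00128), as was Olr1, the oxidised lipoprotein receptor LOX-1 (-1.41 ± 0.21, adjusted p 0.0105), whose call was lost without wild type HDM replicate 2 or knockout HDM replicate 2. The lower genes not named so far lay between -1.85 (Hgd, an enzyme of tyrosine breakdown) and -0.67 (Sgpp2, a sphingosine phosphate phosphatase). The higher genes not named so far lay between 0.64 (Snf8, a subunit of the endosomal sorting complex) and 0.83 (Rprml), and included Sfrp1, a secreted inhibitor of Wnt signalling (0.80 ± 0.14, adjusted p 0.0242). Further Sfrp1 probe sets gave 0.92, 0.44 and 0.01, without a call, and the Sfrp1 call was lost in 5 leave-one-out fits.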

How the data were processed

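Whole lung RNA of 12 samples was measured on 24 microarrays, a set A and a set B array per sample. The values are array intensities as deposited by the authors, 1 signal per probe set, scaled before deposit: a mean trimmed by 2% at each end is 150 on every array. The software that made them is not given in the sources used here. Sample groups come from the titles.

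From there, signals were turned into log2 after adding a pseudocount, 7 on set A and 11 on set B, equal to the 10th percentile there. Probe sets below the 30th percentile of mean log2 signal in their set (a signal of about 32.0 on A and 39.2 on B) were left out, which kept 15838 and 15658. That mean was over all 12 samples. Genes dim after PBS and high in wild type HDM, such as Ccl11, Scin, Slc6a20a, Cxcl3 and AA467197, could therefore pass through that group. One limma model (R 4.3.3, limma 3.58.1) with the 4 groups, lmFit and eBayes with an intensity trend gave the knockout minus wild type difference after HDM, the same after PBS, and the interaction, with 8 residual degrees of freedom. The p-values were adjusted (Benjamini-Hochberg) across the 31496 tested probe sets; a call is an adjusted p under 0.05. Fold changes on this scale understate those of dim genes. Errors after ± are SE for differences and SD for means. A gene is read from its brightest probe set. Platform annotation gave 1 gene for 20393 probe sets on A and 14674 on B, several for 691 and 245, and none for 1606 and 7656; symbols were matched to RefSeq for 20364 and 14499. The model was also run on simulated data, independent normal values with decreases planted in the knockout HDM samples. Those data lack the tissue and RNA quality differences seen here, so that run does not check the calls. The number of arrays limits the precision.

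Named genes are the 12 largest called changes in each direction with groups apart, and up to 4 called genes, or else the 2 lowest p, of each list; others are said to be named after their values were seen, or serve as list context. Members and gene lists were chosen with earlier results of these data known. Alternatives were the pseudocount, the filter, quantile normalization, the HDM samples alone, no trend, the actin ratio as covariate, a replicate block, and leaving out samples. Replicate numbers did not pair the samples (correlations of same-numbered samples -0.09 to 0.17).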

Additional observations from a re-analysis of the deposited data

Results flagged for a closer look

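The genotype difference after HDM differed from that after PBS in 22 of the 97 called genes, by the interaction term of the same limma model (adjusted p under 0.05). Of all 14477 tested genes 23 passed, or 0.159%. The 97 were chosen by the difference after HDM, which is part of this test, so the count of 22 is raised by that choice. Values are the difference after HDM minus that after PBS, in log2. Among epithelial and secretory genes they were -4.87 for Chil4, -2.69 for Slc26a4, -2.38 for Rbp4, -2.26 for Pigr, -2.08 for Slc6a20a, -2.05 for Chia1, -1.98 for Scin, -1.47 for Fcgbp, -1.46 for Aox3 and -1.37 for Car2. Ccl11 gave -4.02 and the receptor Mrgprg -3.55. Smooth muscle genes gave -2.36 for Tpm2, -2.19 for Myh11, -2.19 for Actg2, -1.92 for Aoc3, -1.42 for Tagln, -1.18 for Acta2 and -1.02 for Synpo2. Ahcyl2, a regulator of ion transport, gave -1.20, and Evc2, a protein of the primary cilium, -1.18. Scgb3a2 was the 1 gene with a positive value, 1.16. No test was made of why these differ.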

How the results depend on the processing

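All 97 called genes that an alternative still tested kept their direction under it, 15 kept their call under every alternative that tested them (13 were tested under all 22, while the 50th percentile filter left out Aoc3 and Ccl11), and 37 kept it in all 12 fits that left out 1 sample. Without wild type HDM replicates 1 and 2, the samples with skeletal muscle signal, 34 probe sets were called after HDM in place of 144 (22 genes, 17 of them among the 97), and lists kept 4 of 11 smooth muscle, 1 of 4 goblet cell, 1 of 3 chitinase, 1 of 5 transport and 0 of 4 matrix genes; that fit has 1 wild type HDM sample. Leaving out 1 sample gave 59 to 153 probe sets after HDM (59 without knockout HDM replicate 3, 76 without its replicate 1 or wild type HDM replicate 2, 94 without knockout HDM replicate 2), 6 to 20 after PBS in place of 12 (6 without knockout PBS replicate 3, 20 without wild type PBS replicate 1), 6 to 19 for the interaction in place of 27, 2 to 4 goblet cell genes (2 without any 1 of the 6 HDM samples), 3 to 6 transport genes (3 without knockout HDM replicate 3) and 2 to 5 matrix genes (2 without wild type HDM replicate 2). For the interaction, a pseudocount of 1 gave 16, the 50th percentile filter 17, no trend 17, the actin ratio 8 and the replicate block 11. The replicate block gave 126 probe sets after HDM, with 81 of the 97 genes called. The 50th percentile filter, which tests fewer genes, left 2 goblet cell and 3 transport genes, and the actin ratio 2 goblet cell genes. The cause of the other shifts was not tested. With 3 arrays a group, dim genes such as Il13 could not be judged.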
